A study of Mus musculus with 10 samples.

Results

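The interferon-stimulated antiviral genes were followed in mouse gastrocnemius, the large calf muscle, of control animals and of animals with chronic obstructive pulmonary disease (COPD). The set was a list of 40 gene symbols of shared function, chosen with earlier results of these data known. Of these, 38 had a row among the 18025 genes of the expression files, and 37 passed the filter on low counts that left 12697 genes for testing. Epsti1 had a row but too few counts for testing, and Mx1 and Mx2 were not analysed here. Messenger RNA was sequenced from 5 control and 5 COPD samples of wild-type C57BL/6 mice, whose age is given as 8 weeks in both groups. The title of the series says that the disease was modelled with cigarette smoke. The labels name no dose or length of smoke exposure, no sex and no hour of collection, and nothing in them ties a sample to an animal. The p-values therefore measure the spread between these samples, which may be partly technical. The tissue is a bulk sample, in which fewer cells of a type and less RNA per cell cannot be told apart.

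Interferons are secreted proteins that cells release on sensing foreign or misplaced nucleic acid. Type I interferons bind the receptor chains IFNAR1 and IFNAR2, whose kinases JAK1 and TYK2 switch on the transcription factor complex ISGF3. It contains STAT2 and IRF9 and binds the interferon-stimulated response element (ISRE), while interferon gamma acts on the gamma-activated site (GAS). The induced proteins sense viral RNA, block its translation, degrade it or tag proteins with ISG15. Muscle fibres, endothelium and resident leukocytes can all express such genes.

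The promoters are shown because the genes are grouped by their response to one class of transcription factors. RefSeq promoter windows (build GRCm38.p6, 250 bases before to 50 bases after each start) matched 29 of the 40 symbols, in 33 windows. The core of the ISRE was searched as GAAA and GAAA with any 2 bases (NN) between, and the GAS as TTCNNNGAA, on both strands; matches to 1 motif may overlap each other. An ISRE match lay in the windows of 13 of 29 genes (44.8%), against 3.99% of the 27025 genes of the promoter table. A GAS match lay in those of 6 of the 29 (20.7%), against 9.55% of all. In Ifit3 (chr19:34583279-34583528, plus strand), the 250 bases before the start held 2 ISRE matches on the opposite strand, here in capitals as plus-strand letters:
Ifit3: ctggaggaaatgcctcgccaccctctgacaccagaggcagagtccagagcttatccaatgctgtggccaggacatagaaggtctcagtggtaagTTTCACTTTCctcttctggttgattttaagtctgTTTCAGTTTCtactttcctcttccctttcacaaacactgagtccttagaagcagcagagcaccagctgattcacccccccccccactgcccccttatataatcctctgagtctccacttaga

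Shorter stretches before the start of other genes, with ISRE matches in capitals, let the spacing be compared. They are given 5′ to 3′ on the strand of each gene, for Ifit1 (chr19:34640773-34640825, plus strand), Isg15 (chr4:156200863-156200908, minus strand), Oas1a (chr5:120907526-120907557, minus strand), Oas3 (chr5:120777713-120777746, minus strand), Rsad2 (chr12:26456551-26456584, minus strand), Stat2 (chr10:128270264-128270297, plus strand) and Cxcl10 (chr5:92349081-92349114, minus strand). For Irf1 (chr11:53769912-53769944, plus strand), capitals mark a GAS match.
Ifit1: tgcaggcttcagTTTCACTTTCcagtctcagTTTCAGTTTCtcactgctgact
Isg15: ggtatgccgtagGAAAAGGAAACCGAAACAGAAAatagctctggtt
Oas1a: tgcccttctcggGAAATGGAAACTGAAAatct
Oas3: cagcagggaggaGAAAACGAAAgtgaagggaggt
Rsad2: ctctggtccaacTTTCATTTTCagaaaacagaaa
Stat2: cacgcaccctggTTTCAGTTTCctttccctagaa
Cxcl10: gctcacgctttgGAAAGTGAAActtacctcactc
Irf1: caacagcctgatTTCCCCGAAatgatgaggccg
Ifit1 and Ifit3 each carried 2 separate matches, the upstream one beginning 104 and 156 bases before the start. Isg15 carried 3 that overlap. The 13 genes with an ISRE match had a median log2 fold change of -0.80 (COPD over control; range -1.44 to -0.32), and the 15 tested genes whose window held none a median of -0.66 (-1.10 to 0.04). The ranges overlapped widely. A match describes these letters only and shows no binding.

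Several libraries stood apart and bear on what follows. Library totals were 14085854 to 17251034 expected counts, so that 1 CPM (a count relative to the TMM-scaled library size) stood for 13.5 to 18.1 counts. The TMM factor averaged 1.06 ± 0.0619 over the controls and 0.948 ± 0.0196 over the COPD libraries (SD, n = 5 each). Its exact permutation p was 0.0159, or 0.222 after adjustment for 14 measures of the libraries. Scaling by library size alone moved the median log2 fold change of all tested genes from -0.01 to -0.17. Transcripts of 3 Y-linked genes were at 3 or 4 counts in COPD replicates 1, 4 and 5 and at 1118 to 1974 counts in the other libraries. All controls thus held them, but of the COPD libraries only replicates 2 and 3 did. The contrast of groups is therefore partly confounded with the presence of these transcripts. Interferon-stimulated genes were highest in control replicates 2 and 3, and COPD replicate 5 was often the highest COPD library. Counts are therefore given with and without these libraries.

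Most interferon-stimulated genes were at lower values in COPD muscle, but none passed the edgeR threshold in all 10 libraries. In edgeR (quasi-likelihood F test, p adjusted by Benjamini-Hochberg over all genes), 0 of 37 were past an adjusted p of 0.05, where 0.00788% of all genes were lower and 0.0551% higher. At an unadjusted p under 0.05, 25 were lower and 0 higher, beside 6.64% and 7.94% of all genes. DESeq2, run without the filter on low counts, called 11 of 38 lower and 0 higher, beside 0.86% and 1.49% of all genes. With the filter, a setting added after the data were seen, it called the same 11, of 37 (1.2% of all genes): Ifih1, Zbp1, Ifit1, Ifit2, Ifit3, Oasl2, Irf7, Stat2, Parp12, Parp14 and Rtp4. A log2 fold change below 0 was found for 36 of 37, with a median of -0.79, while the median of all tested genes was -0.01 and 52% of them lay below 0. Without the filter on low counts, 37 of 38 lay below 0 and the median was -0.77. As the genes were chosen with earlier results of these data known, such counts describe them and are no independent test. In 6 genes (Ifih1, Zbp1, Ifit1, Irf7, Stat2 and Parp14) every COPD library lay below every control library, beside 1.55% of all genes. Leaving out COPD replicate 5, edgeR called 7 lower (Ifih1, Zbp1, Ifit1, Oasl2, Parp12, Parp14 and Rtp4), beside 1.15% of all genes. Leaving out control replicates 2 and 3, 0 passed and 9 were lower at an unadjusted p under 0.05 (4.97% of all genes), with a median of -0.37.

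Other settings gave different counts. With library size alone, 0 passed (0.0315% of all genes), 29 were lower at an unadjusted p under 0.05 (18.7%) and 12 had groups that did not overlap (4.76%). Limma on log2(TPM + 1) called 7 of 32 (0.77%), with 13 apart (5.62%), and 4 with a pseudocount of 0.1 (0.493%). Without a filter it called 0 and left 31 of 38 at an unadjusted p under 0.05 (18.4%). In edgeR with a replicate block, 0 passed and 23 had such a p (5.92%). Voom called Ifih1 and Parp14 (0.402%), with 24 at an unadjusted p under 0.05 (8.95%). Over the libraries with Y-linked transcripts, which are all controls but only COPD replicates 2 and 3, edgeR also called Ifih1 and Parp14 (1.15%). There 17 had an unadjusted p under 0.05 (9.59%) and 16 were apart (13.2%). A term for these transcripts left 0 past the threshold (0.402%) and 17 at an unadjusted p under 0.05 (8.97%). Without COPD replicate 5, 24 were lower at an unadjusted p under 0.05 (10.1%) and 12 were apart (4.22%). Without control replicates 2 and 3, 0 passed where 0.00776% of all genes did. Leaving out all 3 of these libraries, Parp14 passed (0.391%), 13 had an unadjusted p under 0.05 (7.56%) and 12 were apart (7.77%).

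**Figure D1:**
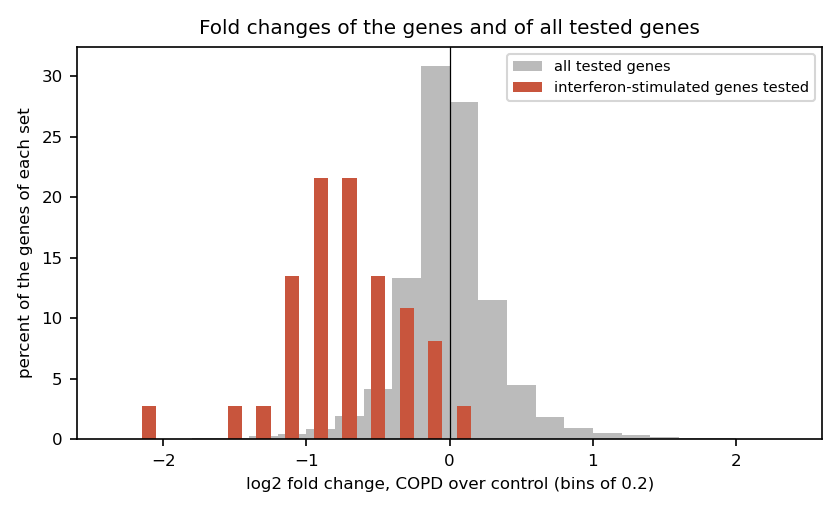
Percent of genes (vertical axis) in each 0.2-wide bin of log2 fold change, COPD over control, by edgeR over all 10 libraries (horizontal axis), for the 37 tested interferon-stimulated genes (red) and all 12697 tested genes (grey). The red bars centre near -0.79 and the grey bars near -0.01.

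Of the 4 transcription factors that carry the interferon signal, 0 passed the edgeR threshold (0.00788% of all genes lower). At an unadjusted edgeR p under 0.05, 3 (Irf7, Stat2 and Irf1) were lower, beside 6.64% of all genes. All 4 had log2 fold changes below 0, beside 52% of all genes. Irf7, the factor that amplifies interferon production, was at 7.51, 18.5, 13.4, 10.8 and 8.51 CPM in control replicates 1 to 5 and at 6.42, 6.36, 5.07, 7.12 and 5.88 CPM in COPD replicates 1 to 5. Stat2, the subunit through which ISGF3 activates transcription, was at 15.6, 29.1, 26.0, 17.9 and 13.6 CPM in control and at 11.3, 9.54, 13.5, 12.1 and 12.6 CPM in COPD. In both genes the groups did not overlap, though the nearest libraries lay close, and control replicates 2 and 3 were the highest. Irf7 had a log2 fold change of -0.93 ± 0.23 (SE; edgeR adjusted p = 0.104) and Stat2 of -0.79 ± 0.20 (adjusted p = 0.116). These were -0.53 and -0.41 without control replicates 2 and 3 (adjusted p = 0.304 and 0.347). Irf1, induced mainly by interferon gamma and the gene with the GAS match shown above, was at 11.8, 25.9, 18.9, 12.8 and 10.7 CPM in control and at 5.98, 6.51, 8.45, 10.7 and 13.7 CPM in COPD. COPD replicate 5 lay above 3 of the controls, and the log2 fold change was -0.81 ± 0.28 (adjusted p = 0.224; -0.37 without control replicates 2 and 3). Irf9, the DNA-binding subunit of ISGF3, had a log2 fold change of -0.33 ± 0.20 (adjusted p = 0.466; -0.03 without control replicates 2 and 3), and its groups overlapped. Exons of Irf7 overlap those of Phrf1 on the opposite strand and those of Irf9 overlap Rnf31 on the same strand (GRCm38 annotation), so these values are uncertain.

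The nucleic acid sensors differed among themselves. Ifih1, which encodes the long double-stranded RNA sensor MDA5, was at 5.30, 6.98, 7.51, 5.44 and 5.47 CPM in control and at 3.62, 3.11, 2.94, 2.58 and 4.90 CPM in COPD. The highest COPD value, in replicate 5, lay just under the lowest control value. Its log2 fold change was -0.83 ± 0.19 (edgeR adjusted p = 0.0973; -1.0 and adjusted p = 0.0137 without COPD replicate 5, -0.65 and adjusted p = 0.309 without control replicates 2 and 3). Zbp1, a sensor of Z-form nucleic acid that triggers necroptosis, was at 0.959, 2.66, 1.79, 0.776 and 1.22 CPM in control and at 0.222, 0, 0.515, 0.204 and 0.673 CPM in COPD. These levels rest on 14 to 45 counts in the controls and on 3, 0, 7, 3 and 11 counts in COPD. At -2.13 ± 0.55 (adjusted p = 0.117) it had the log2 fold change farthest from 0 of the 37 genes, and also the largest SE. Ddx58, which encodes the 5′-triphosphate RNA sensor RIG-I, was at 6.26, 8.05, 10.2, 6.43 and 5.69 CPM in control and at 3.54, 4.14, 6.47, 6.31 and 5.76 CPM in COPD. Here COPD replicates 3, 4 and 5 lay among the lower controls (log2 fold change -0.48 ± 0.21, adjusted p = 0.32; -0.22 without control replicates 2 and 3). Dhx58, a regulator of both RNA sensors that lacks their signalling domain, had a log2 fold change of -0.23 ± 0.36 (adjusted p = 0.821), which turned to 0.056 without control replicates 2 and 3.

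IFIT proteins bind viral RNA ends and block translation, and all 3 of their genes in the set were at lower means in COPD. Ifit1 was at 3.50, 4.97, 9.57, 3.83 and 2.87 CPM in control and at 1.77, 1.85, 2.13, 1.22 and 2.08 CPM in COPD. Ifit3, the partner that stabilizes IFIT1, was at 7.05, 11.3, 13.3, 6.77 and 4.86 CPM in control and at 2.88, 5.10, 3.82, 2.65 and 3.18 CPM in COPD. Ifit2, which partners both, was at 3.95, 5.33, 6.25, 2.61 and 3.48 CPM in control and at 2.22, 1.11, 2.28, 2.04 and 3.18 CPM in COPD. Control replicate 3 was highest for all 3 genes. The groups did not overlap for Ifit1, and 1 COPD library crossed the lowest control for each of the others. Log2 fold changes were -1.44 ± 0.32 for Ifit1, -1.29 ± 0.28 for Ifit3 and -0.98 ± 0.29 for Ifit2 (edgeR adjusted p = 0.0963, 0.0887 and 0.16; DESeq2 adjusted p = 0.00338, 0.00213 and 0.0443). Without control replicates 2 and 3 they were -0.90, -0.82 and -0.62. Ifit1 and Ifit3 have close paralogs between which shared reads could be split, so that single-gene values are uncertain to that extent. Ifit3b, the paralog of Ifit3, had a log2 fold change of -0.28 ± 0.44 (edgeR adjusted p = 0.819). COPD replicates 1 to 4 (4.58, 8.51, 7.65 and 4.00 CPM) lay above control replicates 1, 4 and 5 (3.84, 3.83 and 3.20 CPM). Control replicates 2 and 3 were the highest libraries and COPD replicate 5 the lowest. Whether reads were split between Ifit3 and Ifit3b was not tested, so the value of Ifit3 alone is uncertain.

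**Figure D2:**
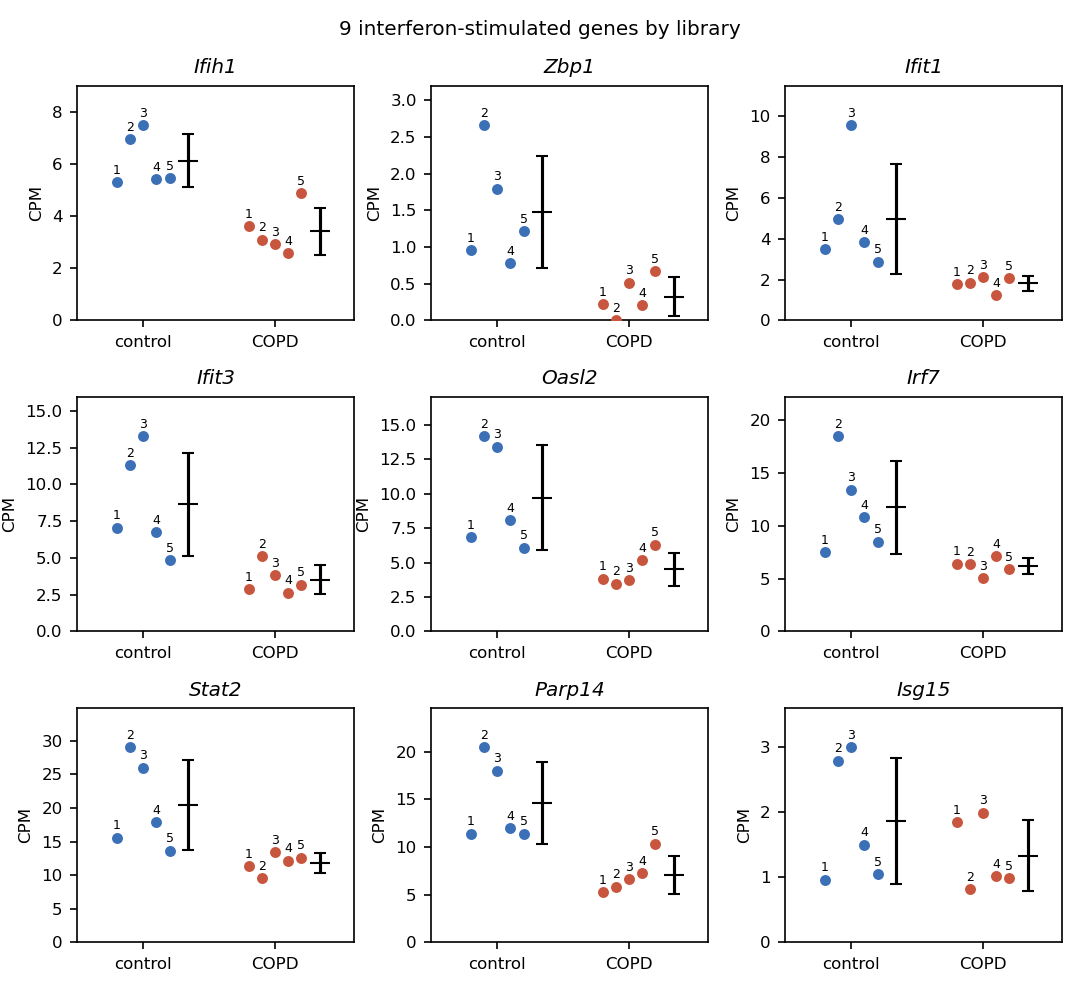
CPM (vertical axis, from 0) of 9 interferon-stimulated genes in each of the 5 control (blue) and 5 COPD (red) libraries; small numbers give the replicate and black bars the mean ± SD of each group. Control replicates 2 and 3 are the highest points in most panels, and in Isg15 the groups overlap.

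Of the 5 OAS family genes, 0 passed the edgeR threshold (0.00788% of all genes lower) and in 0 were the groups apart (1.55%). At an unadjusted edgeR p under 0.05, 4 were lower (6.64% of all genes). All 5 had log2 fold changes below 0 (52% of all genes). OAS enzymes make 2′-5′-linked oligoadenylate, which activates RNase L, and OASL1 lacks that activity. Oasl2 was at 6.83, 14.2, 13.4, 8.10 and 6.08 CPM in control and at 3.84, 3.48, 3.75, 5.16 and 6.31 CPM in COPD (log2 fold change -1.10 ± 0.27, edgeR adjusted p = 0.104, DESeq2 adjusted p = 0.00777). Oas1a was at 1.52, 2.90, 2.86, 1.66 and 1.16 CPM in control and at 0.517, 0.592, 1.18, 1.63 and 0.980 CPM in COPD (-1.03 ± 0.36, edgeR adjusted p = 0.228). Oas2 was at 8.58, 15.4, 13.7, 6.99 and 4.75 CPM in control and at 3.91, 4.14, 7.79, 6.78 and 4.53 CPM in COPD (-0.86 ± 0.31, adjusted p = 0.244). For all 3 genes the groups overlapped, and control replicates 2 and 3 lay above every COPD library. Oas3 and Oasl1 had log2 fold changes of -0.82 ± 0.34 and -0.66 ± 0.44. Those of Oasl2, Oas1a and Oas2 were -0.63, -0.56 and -0.32 without control replicates 2 and 3. Oas1a belongs to a cluster of near-identical genes, so its own level is uncertain.

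Among the PARPs and their partner, Parp14 had the log2 fold change farthest from 0. PARP9, PARP10, PARP12 and PARP14 belong to the ADP-ribosyltransferase family, and the ubiquitin ligase DTX3L acts as a complex with PARP9. Parp14 was at 11.4, 20.5, 18, 12 and 11.4 CPM in control and at 5.24, 5.84, 6.62, 7.26 and 10.3 CPM in COPD. No COPD library reached the lowest control, and the log2 fold change was -1.05 ± 0.22 (edgeR adjusted p = 0.0887). Over 25 other settings it was past the threshold in 8, more than any other gene of the 37, and its log2 fold change ran from -1.23 to -0.71. Parp12 was at 8.97, 12.4, 11.2, 8.04 and 7.07 CPM in control and at 5.32, 4.81, 5.88, 6.31 and 7.90 CPM in COPD (-0.65 ± 0.18, adjusted p = 0.144). Parp9 was at 9.59, 13.3, 11.7, 9.54 and 8.23 CPM in control and at 7.53, 6.66, 8.31, 7.26 and 8.88 CPM in COPD (-0.43 ± 0.15, adjusted p = 0.216). In both genes COPD replicate 5 was the highest COPD library and overlapped the controls. Parp12 stood at -0.41 and Parp9 at -0.24 without control replicates 2 and 3. Dtx3l had a log2 fold change of -0.44 ± 0.19 (adjusted p = 0.317; -0.16 without control replicates 2 and 3). Parp10 was nearly level, at -0.11 ± 0.22 (adjusted p = 0.867), and changed sign to 0.24 without control replicates 2 and 3. Parp9 and Dtx3l overlap each other on opposite strands, and exons of Parp10 overlap those of Plec.

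In the ISG15 system, all 5 genes had log2 fold changes below 0 (52% of all genes). An unadjusted edgeR p under 0.05 was found for 3 of them (Trim30a, Herc6 and Usp18), beside 6.64% of all genes lower. Isg15, which encodes the ubiquitin-like modifier, was at 0.959, 2.78, 2.99, 1.5 and 1.05 CPM in control and at 1.85, 0.814, 1.98, 1.02 and 0.980 CPM in COPD. Control replicates 2 and 3 were high and the other controls lay among the COPD libraries (log2 fold change -0.48 ± 0.38, edgeR adjusted p = 0.616; 0.18 without control replicates 2 and 3). Usp18, the ISG15 protease that also restrains the interferon receptor, was at 1.69, 2.31, 4.92, 2.33 and 1.88 CPM in control and at 1.48, 1.41, 2.06, 1.70 and 1.22 CPM in COPD (-0.73 ± 0.30, adjusted p = 0.294). Herc6, the main ISG15 ligase of the mouse, was at 2.2, 4.85, 3.39, 1.89 and 2.15 CPM in control and at 1.33, 1.33, 2.35, 1.15 and 2.14 CPM in COPD (-0.79 ± 0.31, adjusted p = 0.272). Both overlapped between groups, and both stood at -0.32 without control replicates 2 and 3. Trim30a was at 5.02, 6.33, 5.38, 4.99 and 4.36 CPM in control and at 4.14, 3.25, 3.23, 3.12 and 4.78 CPM in COPD (-0.49 ± 0.17, adjusted p = 0.219). Trim25, a ubiquitin ligase that promotes RIG-I signalling, was at 14.1, 19.6, 20.7, 15.0 and 11 CPM in control and at 9.75, 9.61, 16.5, 22.3 and 13.3 CPM in COPD. Its highest library was COPD replicate 4, and the log2 fold change was -0.17 ± 0.24 (adjusted p = 0.793).

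The remaining effectors ranged from a log2 fold change of -1.02 to one of 0.04. Rtp4, an interferon-induced receptor transport protein, was at 6.15, 10.2, 8.97, 9.65 and 5.52 CPM in control and at 4.28, 1.78, 3.97, 4.27 and 5.57 CPM in COPD. Only COPD replicate 5 reached the lowest control (log2 fold change -1.02 ± 0.27, edgeR adjusted p = 0.121; -1.17 and adjusted p = 0.0445 without COPD replicate 5, -0.83 and adjusted p = 0.365 without control replicates 2 and 3). Ifi44 was at 2.14, 1.83, 2.39, 1.44 and 0.939 CPM in control and at 0.665, 0.888, 0.956, 1.36 and 0.429 CPM in COPD (-1.02 ± 0.33, adjusted p = 0.202). Bst2 encodes tetherin, which holds budding virions on the cell surface. It was at 8.13, 17.9, 18.7, 13.7 and 9.17 CPM in control and at 9.53, 8.14, 9.63, 8.48 and 8.08 CPM in COPD (-0.62 ± 0.22, adjusted p = 0.232). The COPD libraries of Bst2 lay close together, while the controls ranged from the COPD level up to control replicate 3, and without control replicates 2 and 3 the log2 fold change was -0.24. Rsad2 (viperin) and its neighbour Cmpk2, which make and feed a chain-terminating nucleotide, had log2 fold changes of -0.80 ± 0.39 and -0.83 ± 0.33 (adjusted p = 0.367 and 0.274), which were -0.17 and -0.38 without control replicates 2 and 3. Eif2ak2, which encodes the translation-blocking kinase PKR, had one of -0.32 ± 0.15, Xaf1 of -0.64 ± 0.24 (-0.28 without control replicates 2 and 3) and Samd9l of -0.28 ± 0.25. Epsti1, which was not tested, had 3 to 13 counts per library.

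Ifi27 and Ifi35 held nearly level between the groups. Ifi27 was at 15.5, 17, 19.3, 14.5 and 12.8 CPM in control and at 14.9, 16.9, 14.9, 14.2 and 13.3 CPM in COPD (log2 fold change -0.09 ± 0.12, edgeR adjusted p = 0.792). Ifi35 was at 13.5, 14.5, 16.4, 14.5 and 11 CPM in control and at 12.3, 15.7, 19.0, 16.6 and 8.27 CPM in COPD (0.04 ± 0.20, adjusted p = 0.95); scaling by library size alone turned the sign (-0.12). On the TPM scale, which is per transcript length, these were among the most abundant of the 38 genes. In control Bst2 led at 30.8 ± 10.0 TPM, followed by Ifi27 at 28.2 ± 3.28 and Ifi35 at 18.6 ± 1.80 TPM (SD, n = 5). In COPD Ifi27 led at 23.3 ± 1.86 TPM, and Bst2 (17.5 ± 1.5) and Ifi35 (16.6 ± 5.00) did not differ beyond their spread. Irf1 (13.4 ± 5.32 TPM), Irf7 (11.6 ± 4.28) and Rtp4 (10.9 ± 3.13) came next in control, within each other's SD. At the low end lay Oas3 at 0.498 ± 0.210 and Epsti1 at 0.510 ± 0.224 TPM in control.

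Cxcl10, the chemokine that attracts CXCR3-bearing T cells, had the highest biological coefficient of variation of the 37 genes, 46.9%. It was at 0.677, 1.95, 2.93, 1.16 and 2.98 CPM in control and at 0.665, 2.29, 0.662, 0.814 and 0.735 CPM in COPD. Control replicate 1 was at the COPD level, COPD replicate 2 at the level of the high controls, and control replicate 5 was the highest library. The log2 fold change was -0.91 ± 0.46 (edgeR adjusted p = 0.394). Exons of Cxcl10 overlap those of Art3 on the opposite strand.

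Read by column, the set was highest in control replicates 2 and 3. One or other of these libraries held the highest value for 34 of the 37 genes (18 and 16). In control replicate 2, 32 genes lay above the highest COPD library and in control replicate 3, 34 did; for the other controls (1, 4 and 5) these numbers were 19, 17 and 8. The mean log2 CPM of the 37 genes, centred on the 10 libraries, was 0.13, 0.74, 0.79, 0.15 and -0.12 in the control libraries, in order of replicate number. It was -0.53, -0.58, -0.21, -0.22 and -0.16 in COPD replicates 1 to 5. All COPD libraries thus lay below all controls, with control replicate 5 and COPD replicate 5 nearly touching. COPD replicates 2 and 3, which hold Y-linked transcripts as the controls do, stood at -0.58 and -0.21, and the other COPD libraries between -0.53 and -0.16. The lowest values fell mainly in COPD replicates 1 and 2, which held the minimum of 10 and 12 genes. The SD of log2 CPM was larger within control than within COPD for 24 of 37 genes (64.9%), beside 37.7% of all tested genes.

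**Figure D3:**
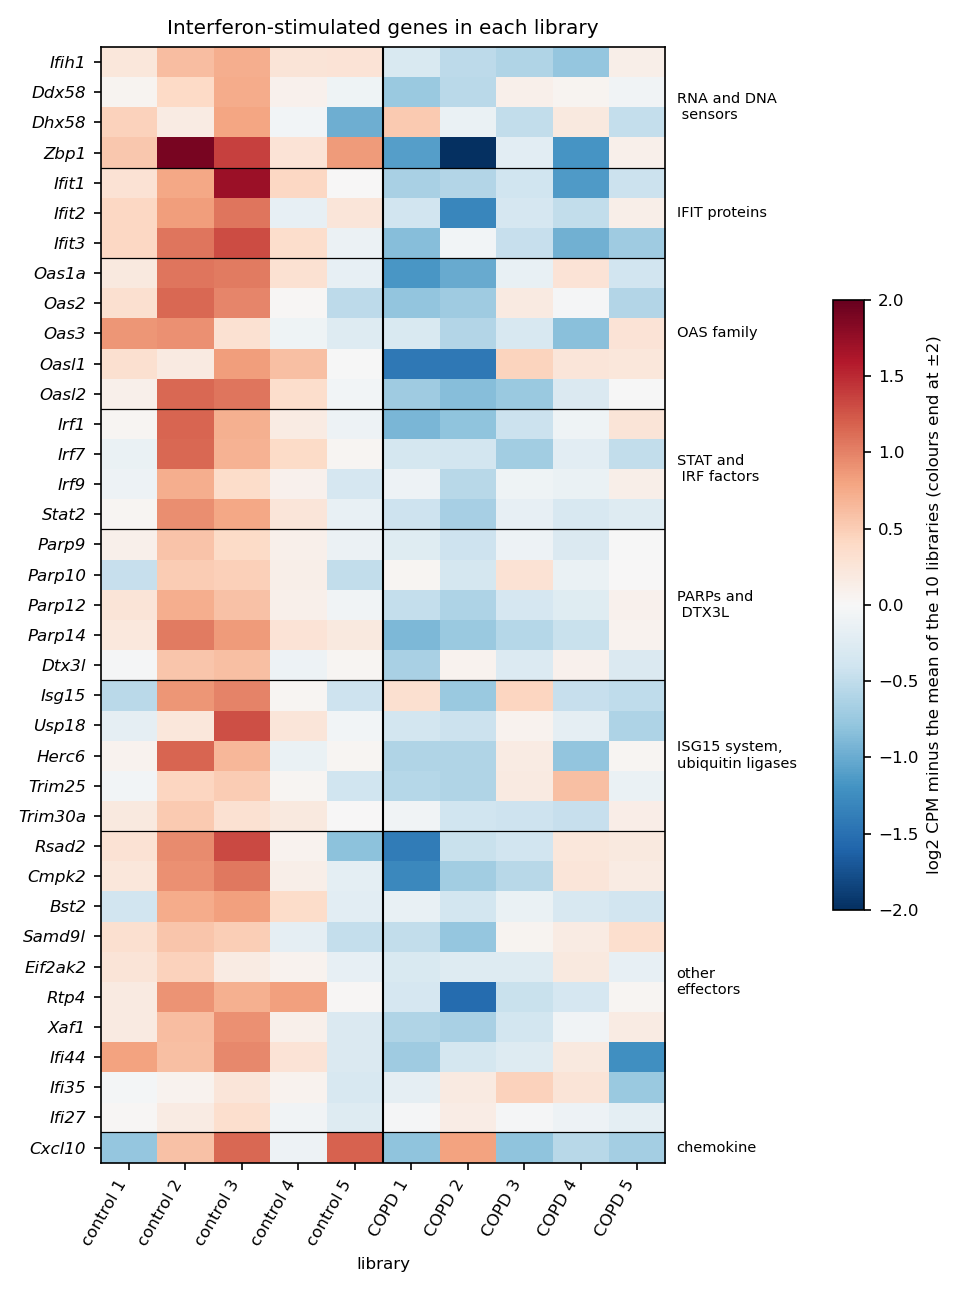
Log2 CPM of the 37 tested interferon-stimulated genes (rows, by function) in 10 libraries (columns), each minus its mean over the libraries; red is above and blue below that mean, and colours end at ±2. The columns of control replicates 2 and 3 are red for most genes, and those of COPD replicates 1 and 2 are blue for most.

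The functional groups separated in some cases and overlapped in others. The mean of the IFIT genes, centred in the same way, was between 0.05 and 1.36 in control and between -0.87 and -0.34 in COPD, and that of the sensors between 0.02 and 0.90 and between -0.94 and -0.08; neither overlapped. Those of the STAT and IRF factors (-0.14 to 0.99 in control, -0.60 to -0.09 in COPD), the OAS family (-0.20 to 0.89, -0.91 to -0.10) and the PARPs with DTX3L (-0.09 to 0.68, -0.45 to -0.03) overlapped at control replicate 5. The ISG15 system overlapped too, with COPD replicate 3 at 0.084 above control replicates 1, 4 and 5 (-0.10, 0.077 and -0.16), as did the other effectors, with COPD replicate 4 at 0.046 and control replicate 5 at -0.30, and Cxcl10. Without control replicates 2 and 3, where the median of all tested genes was -0.01, 30 of 37 genes stayed below 0. Dhx58, Parp10, Isg15, Trim25, Samd9l, Ifi27 and Ifi35 were above it. In that fit 6 genes had groups that did not overlap, beside 3.66% of all genes. The smallest unadjusted edgeR p among the 37 then belonged to Ifit1 (0.00307, adjusted p = 0.247), Parp14 (0.0059, adjusted p = 0.269) and Ifit3 (0.00605, adjusted p = 0.269).

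**Figure D4:**
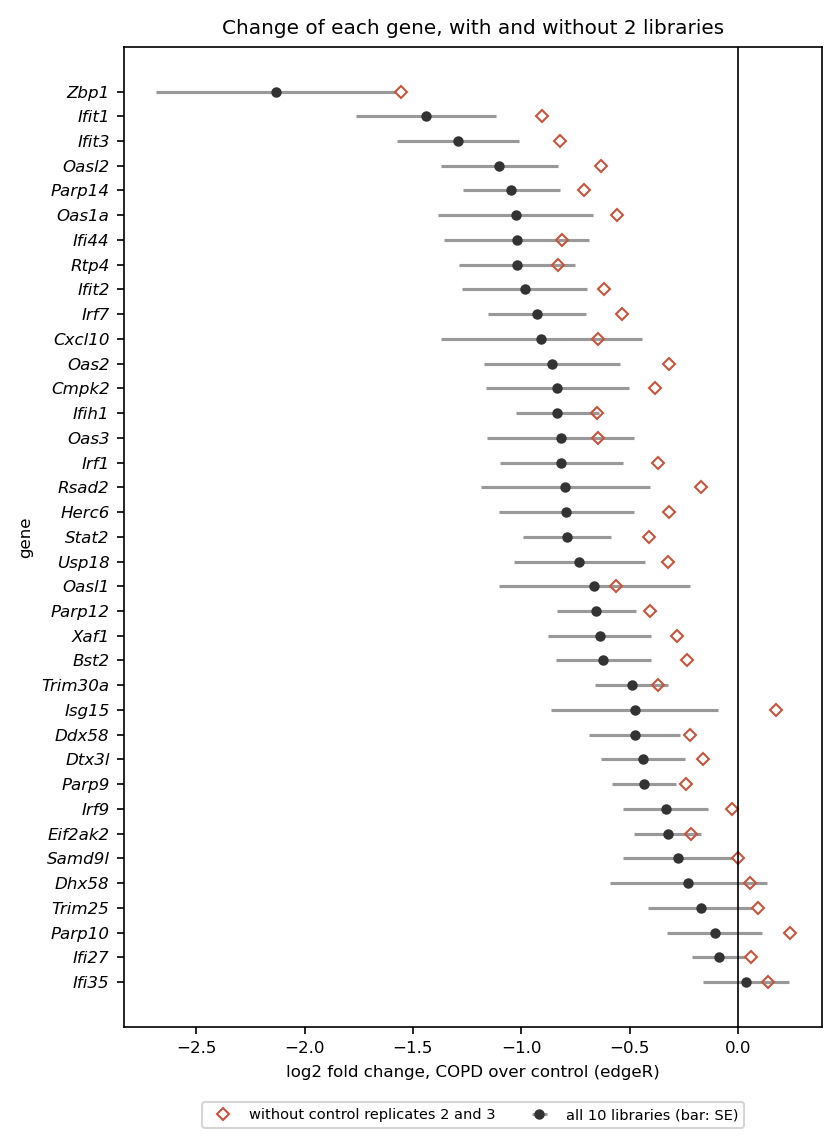
Log2 fold change of each of the 37 genes, COPD over control, by edgeR: filled circles with SE bars for all 10 libraries, open diamonds without control replicates 2 and 3. Most diamonds lie closer to 0 than the circles, and 7 diamonds lie above 0.

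Markers of other cells were set beside these values. The 6 pan-leukocyte markers, which include Ptprc (CD45), were all detected and summed to 12.5 to 33.7 CPM in control and 5.69 to 28.7 CPM in COPD. The 11 macrophage markers with a row summed to 74.4 to 131 CPM and 38.8 to 119 CPM, and the 9 dendritic cell markers to 62.9 to 194 CPM and 59.3 to 151 CPM. Markers of plasmacytoid dendritic cells, the professional producers of type I interferon, summed to at most 3.16 CPM in any library, those of T and NK cells to at most 3.31 CPM and those of B cells to at most 1.78 CPM. The 7 neutrophil markers summed to 7.96 to 296 CPM in control and 5.33 to 79.8 CPM in COPD, highest in control replicate 1 and COPD replicate 5. Of the 11 macrophage genes, 9 had log2 fold changes below 0 and 4 were lower at an unadjusted edgeR p under 0.05, beside 52% and 6.64% of all genes. All 6 leukocyte genes lay below 0, with a median log2 fold change of -0.60, and 0 had such a p. No list held a gene with 0 counts in all libraries. None of these sums passed the two-sided exact permutation test between groups (p from 0.0635 to 0.786, adjusted p from 0.278 to 0.917 over the 14 measures). With 5 libraries in each group, that does not show equal levels. Muscle fibre markers, which mark the labelled tissue, summed to 133554 to 233086 CPM in control and 208507 to 238110 CPM in COPD, higher on average in COPD (exact permutation p = 0.0635, adjusted p = 0.278), with 7 of 8 genes above 0. Some lists were high in the same controls as the antiviral genes. The dendritic cell list includes Cd74 and the MHC class II genes H2-Ab1, H2-Aa and H2-Eb1, so its sum need not follow dendritic cells alone. Dendritic cell markers summed to 194 and 169 CPM in control replicates 2 and 3, against at most 98 CPM in the other controls and 151 CPM in COPD. Endothelial markers summed to 438 and 443 CPM there, against at most 338 CPM in the other controls, and to 442 CPM in COPD replicate 4. Their part in the values of control replicates 2 and 3 was not tested. Centred means of the leukocyte and macrophage lists were 0.88 and 0.57 in COPD replicate 5, close to the highest controls (0.98 and 0.58). The interferon-stimulated genes there stood at -0.16, the highest COPD value, below every control but near control replicate 5 at -0.12. The guanylate-binding and immunity-related GTPases stood at 0.12 in COPD replicate 5. The part of leukocytes and macrophages in the values of that library was not tested. In COPD replicates 2 and 3 the leukocyte list stood at -1.47 and -0.93, and the part of these cells in the values of those libraries was not tested.

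**Figure D5:**
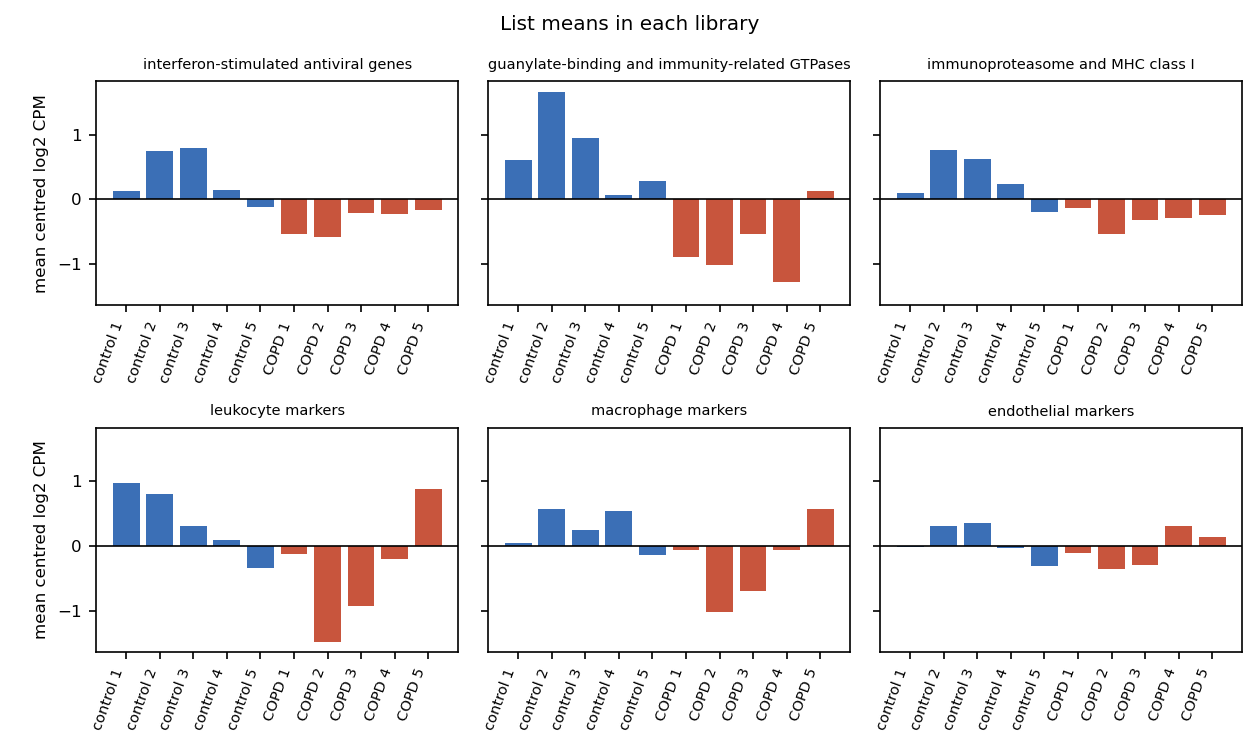
Mean log2 CPM of each gene list in the 10 libraries, minus the mean of each gene over the libraries (vertical axis), for control (blue) and COPD (red). The interferon-stimulated genes are above 0 in control replicates 1 to 4 and below 0 in every COPD library. In COPD replicate 5 the leukocyte, macrophage and endothelial markers and the GTPases are above 0.

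Upstream of these genes, few receptors, adaptors or brakes had a small p. Of the interferon ligands only Ifnz, of the limitin family, was analysed here; it had 0 to 5 counts per library. Of all tested genes, 52% lay below 0 and 6.64% were lower at an unadjusted edgeR p under 0.05. Of 8 tested receptor and JAK kinase genes, 5 lay below 0, and 1 was lower at that p. That was Il10rb, a chain shared by the interferon lambda and interleukin 10 receptors, whose mean was 8.20 ± 1.32 CPM over the controls and 5.65 ± 1.88 CPM over the COPD libraries (SD, n = 5; log2 fold change -0.53 ± 0.21, edgeR adjusted p = 0.272). Ifnar2 had a log2 fold change of -0.26 ± 0.16 and Ifngr1 of 0.27 ± 0.14 (adjusted p = 0.486 and 0.402). Of other transcription factors, Irf8, which acts in macrophages and dendritic cells, had a log2 fold change of 0.40 ± 0.23 and Irf5 of 0.18 ± 0.33 (edgeR adjusted p = 0.451 and 0.848). Of 11 tested sensing adaptors and kinases, 3 lay below 0 and 0 had an unadjusted edgeR p under 0.05; the smallest were those of Cgas, the cytosolic DNA sensor (-0.55 ± 0.28), its effector Sting1 (-0.36 ± 0.24) and Ikbke (0.37 ± 0.32). Of 9 brakes on the pathway 5 lay below 0 and 0 had such a p, with Tnfaip3 at -0.49 ± 0.23, Socs1 at -0.49 ± 0.34 and Nlrc3 at -0.28 ± 0.25.

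Gene families that interferon gamma also induces showed the same direction. Of 14 tested guanylate-binding proteins and immunity-related GTPases, which attack vacuoles of intracellular pathogens, 13 lay below 0 and 12 were lower at an unadjusted edgeR p under 0.05 (52% and 6.64% of all genes), with a median log2 fold change of -1.33. Gbp5, Tgtp2 and Gbp9 had log2 fold changes of -1.99 ± 0.43, -2.82 ± 0.67 and -1.27 ± 0.31 (adjusted p = 0.0887, 0.0973 and 0.104). Tgtp1, of the same family as Tgtp2, stood at -1.77 ± 0.48 (adjusted p = 0.135). In COPD replicate 4, Tgtp2 had 1 count and Tgtp1 had 57. Whether reads were split between these genes was not tested, so the value of Tgtp2 alone is uncertain. Of 18 immunoproteasome and MHC class I genes, 17 lay below 0 and 14 were lower at that p (again beside 52% and 6.64%), with a median of -0.65; Tap2, the peptide transporter, stood at -0.82 ± 0.16, the proteasome subunit gene Psmb8 at -1.05 ± 0.25 and H2-Q7 at -1.40 ± 0.33 (adjusted p = 0.078, 0.0973 and 0.0973). By column, the centred mean of the GTPases in COPD replicate 5 was 0.12, inside the control range of 0.07 to 1.66. That of the class I list in COPD replicate 1, -0.13, lay above control replicate 5 at -0.20. Both lists were highest in control replicate 2. No test compared the lists.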

How the data were processed

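Polyadenylated RNA of gastrocnemius was sequenced from 5 control and 5 COPD samples, grouped by title. The authors deposited expected counts per gene, estimates of which 30.7% were not whole, and TPM for the same genes. Per the submitters' processing notes, which give no role or order, the tools were RSEM 1.2.12, Bowtie2 2.2.5, HISAT2 2.0.4 and DESeq2 1.4.5, on build mm9. Whether counting used strand is not given. Expected counts were rounded, filtered (filterByExpr), TMM-scaled and compared by edgeR 4.0.16 (glmQLFit, glmQLFTest) with Benjamini-Hochberg adjustment over all tested genes at 0.05. The SE is the log2 fold change divided by the square root of F. Centred means use log2 CPM with a prior count of 2. For library measures, the two-sided exact permutation test ran over all 252 relabelings, so that p cannot fall under 0.00794. The genes, lists and alternatives were chosen with earlier results of these data known. Values in every library are given, for each functional group, for the 3 genes of smallest p and the one of highest TPM; Ifi27 and Isg15 were added after their values were seen, as was Ifi35. From each pathway list, the 3 genes of smallest p are named, and other genes by counts. Exceptions are Ifit3b, added as a paralog of Ifit3, and Tgtp1, added as a gene of the same family as Tgtp2. From the list of further transcription factors, 1 gene is not reported here, nor are that list's counts. Alternatives were DESeq2 1.42.0 with and without the filter, other scalings and filters, voom with weights per sample, limma 3.58.1 on TPM in log2 with a pseudocount of 1 or 0.1, a replicate block, a term for Y-linked transcripts and leaving out libraries. Libraries differed by a chi-square per degree of freedom of 17.1 to 117, so none was counted as deposited more than once. Procedures were tested on simulated data. R was version 4.3.3; figures used matplotlib 3.10.9. Exon overlaps were read from GENCODE M21 (GRCm38), names only.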

Additional observations from a re-analysis of the deposited data

Results flagged for a closer look

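Among 62 genes screened in both groups (124 groups of 5 libraries), 8 had 1 library far from the other 4 by Dixon's gap test at its 95% limit; chance flags about 1 in 20. In control, Usp18 was at 4.92 CPM in replicate 3, against 2.33 CPM in the next library. In COPD, Cxcl10 was at 2.29 CPM in replicate 2 (next 0.814) and Eif2ak2 at 7.19 CPM in replicate 4 (next 5.63). COPD replicate 5 stood apart for the other 5 genes. It was high for Gbp5 at 6.18 CPM (next 2.21), Gbp9 at 24.1 CPM (next 9.36), Tgtp2 at 8.08 CPM (next 1.77) and Ifi47 at 3.12 CPM (next 1.48), and low for Trex1 at 9.43 CPM (next 15.0). Markers of leukocytes and macrophages were also high in that library, and their part in these values was not tested.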

How the results depend on the processing

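Low counts limit Dhx58, Zbp1, Oas3, Oasl1, Ifi44, Isg15 and Cxcl10, whose group means lay under 2 CPM (1 CPM is 13.5 to 18.1 counts). In these results the cause of a change with the setting was not tested. Genes lower past the threshold numbered 0 in all 10 libraries by edgeR (0.00788% of all genes). DESeq2 gave 11 both without the filter on low counts (0.86%) and, added after the data were seen, with it (1.2%). Limma with its own filter gave 7 on log2(TPM + 1) (0.77%) and 4 on log2(TPM + 0.1) (0.493%). Voom gave 2 (Ifih1 and Parp14, 0.402%), as did edgeR over the libraries with Y-linked transcripts (1.15%). The number was 0 to 7 when single libraries were left out, with 7 without COPD replicate 5 (1.15%). Genes with groups apart numbered 6 (1.55% of all genes). They numbered 12 with library size alone (4.76%) and 16 over the Y-linked libraries (13.2%). Each TPM setting gave 13 (5.62% with log2(TPM + 1) and its filter). Leaving out single libraries gave 6 to 13, with 12 without COPD replicate 5 (4.22%). Without control replicate 5 the number was 13, and the share of all genes there was not computed. Genes lower at an unadjusted p under 0.05 numbered 25 (6.64% of all genes), but 18 to 28 when single libraries were left out. Without COPD replicate 5 they numbered 24 (10.1%). For the other fits without a single library, the shares of all genes at that p were not computed. Without control replicates 2 and 3 they numbered 9 (4.97%), and the median was -0.37. The settings that follow were also added after the data were seen. Limma on TPM without a filter gave 0 past the threshold (31 at an unadjusted p under 0.05). Without control replicates 2 and 3 and COPD replicate 5, 1 passed (Parp14), 13 had an unadjusted p under 0.05, 12 had groups apart and the median was -0.44.

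Signs turned as follows. Without control replicates 2 and 3, Dhx58 was at 0.056, Parp10 at 0.24, Isg15 at 0.18, Trim25 at 0.093, Samd9l at 0.0017 and Ifi27 at 0.060, and without COPD replicate 5 too, at 0.17, 0.24, 0.27, 0.12 and 0.10 for these but Samd9l. Ifi35 was at -0.12 with library size alone, -0.20 (with and without a filter) and -0.21 by limma on TPM, and -0.074 to 0.18 without single libraries. Without control replicates 2 and 3 and COPD replicate 5 it was at 0.29. Without single libraries the lowest values were -0.65 for Isg15, -0.39 for Trim25 and -0.16 for Ifi27, and the median ran from -0.85 to -0.59. Parp10 ran from -0.23 to 0.02 (0.023 without control replicate 2, 0.0051 without control replicate 3). Over the Y-linked libraries and with the Y-linked term, Ifi27 was at 0.022 and 0.012, Ifngr1 at -0.020 and -0.029 and Irf5 at -0.33 and -0.34; Irf5 was at -0.11 and -0.15 by limma on TPM and -0.22 to 0.34 without single libraries.

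The shared replicate numbers did not pair the samples: deviations of same-numbered libraries correlated at -0.14 to 0.04, and 0 of 10 libraries correlated best with its own number. With a replicate block, 0 genes passed, 23 had an unadjusted p under 0.05 and Ifi35 was at -0.0027.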

Other observations

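Interferon-induced genes outside the set lay on both sides of 0. Of 47 tested, 40 lay below 0 (52% of all genes), with 15 lower and 1 higher at an unadjusted edgeR p under 0.05 (6.64% and 7.94% of all genes) and a median log2 fold change of -0.36. Sp100, a nuclear body protein gene, had the smallest p (controls 23.8 ± 5.02 CPM, COPD libraries 13.8 ± 2.76 CPM; SD, n = 5; log2 fold change -0.79 ± 0.17, edgeR adjusted p = 0.0887), followed by the GTPase gene Ifi47 (-1.37 ± 0.33, adjusted p = 0.103). The 1 gene higher at such an unadjusted p was Ifi205, of the DNA-binding p200 family. It was at 4.18, 8.99, 8.97, 5.55 and 3.81 CPM in control replicates 1 to 5 and at 13.0, 10.4, 11.3, 12.7 and 14 CPM in COPD replicates 1 to 5. Every COPD library lay above every control (log2 fold change 0.97 ± 0.24, adjusted p = 0.104), and control replicates 2 and 3 were again the highest controls. The share of all genes apart in that direction was not computed. Ifi205 has close paralogs, between which shared reads could be split.

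Enzymes that edit or clear the body's own nucleic acid were tested as well. Of 9 tested, 7 lay below 0 and 2 were lower at an unadjusted edgeR p under 0.05, with the same shares of all genes beside them. Adar, which edits double-stranded RNA so that MDA5 does not sense it, was at 10.7, 12.4, 16.6, 10.5 and 6.85 CPM in control and at 5.61, 6.43, 7.35, 8.41 and 7.41 CPM in COPD. Its log2 fold change was -0.69 ± 0.21 (adjusted p = 0.165). Samhd1, which breaks down deoxynucleotides, stood at -0.38 ± 0.15 and the DNA exonuclease gene Trex1 at -0.39 ± 0.19 (adjusted p = 0.272 and 0.362).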
